A study of Arabidopsis thaliana with 42 samples.

Results

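The transcripts that were lost or gained first in the line labelled rh6812 were followed in 9 of the 42 libraries of the series, namely the 3 replicates each at 0, 15 and 30 min of cordycepin. The main comparison set the 30 min libraries against the 0 min libraries, with 15 min as the step between them. All 9 libraries were made from rRNA-depleted RNA of whole 5-day-old Arabidopsis thaliana seedlings of genotype rh6812 in the Col-0 background, and the label names cordycepin as the agent at every time, 0 min included. The same times in seedlings of the wild-type ecotype Col-0, also labelled with cordycepin, served as the point of comparison, and 6 libraries of untreated poly(A)+ RNA gave the level of each transcript without the drug in rh6812 and in Col-0. Whether replicates came from separate cultures is not stated in the labels, and the p-values therefore reflect spread among these libraries that could be technical.

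Cordycepin is an adenosine analogue that ends RNA chains as they are made, so a transcript that is degraded quickly loses abundance relative to the others once the drug has entered the tissue. RH6, RH8 and RH12 are DEAD-box RNA helicases related to yeast DHH1 and animal DDX6, proteins of processing bodies that link deadenylation to decapping and repress translation. In plants, messages known to turn over fast include those for SAUR proteins, auxin repressors, AP2/ERF and zinc finger transcription factors and other regulators of growth and stress.

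Values are normalised read counts scaled to library depth (CPM), adjusted by TMM, which holds a typical transcript near no change. A fall or a rise is therefore a change in level relative to a typical transcript, and lost and risen are used in that sense below. The series holds no time course without the drug, so changes in synthesis and in decay were not told apart. Because whole seedlings were sampled, fewer cells of a type and less RNA per cell cannot be told apart. The 9 rh6812 libraries held 13965971 to 22251739 counts, of which chloroplast loci took 43.6% to 47.7%. The 6 Col-0 libraries at 0 and 30 min held 17311068 to 21936952 counts and 51.4% to 56.8% from chloroplast loci. All 13 tested root markers and all 48 tested nuclear photosystem and rubisco genes had counts in both lines. At 0 min the root markers summed to 70.9 to 91.3 CPM in rh6812 and 49.3 to 61.1 CPM in Col-0. The photosystem and rubisco genes summed to 42400 to 46700 and 63000 to 78800 CPM. For 7 epidermis and guard cell markers the sums were 768 to 852 and 463 to 539 CPM, while those of 9 seed maturation markers overlapped. What these gaps add to differences between the lines was not tested.

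The helicase transcripts were read first as a check of the label. RH8 (AT4G00660) had 3.74, 3.06 and 3.46 CPM in rh6812 at 0 min, against 34.2, 35.8 and 34.3 CPM in Col-0 at 0 min. RH12 (AT3G61240) had 10.2, 8.99 and 9.81 CPM in rh6812, against 15.9, 16.4 and 20.6 CPM in Col-0. RH6 (AT2G45810) went the other way, with 368, 342 and 423 CPM in rh6812 and 33.1, 36.2 and 36.6 CPM in Col-0, so on the transcript level it goes against a simple loss, and the libraries are called rh6812 here as labelled. Over 30 min of cordycepin none of the 3 changed past the threshold in the libraries labelled rh6812. The log2 change was -0.30 for RH6, 0.09 for RH8 and 0.01 for RH12.

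Within 30 min a small part of the rh6812 transcriptome moved. Of 21486 genes tested, 264 (1.23%) were lower and 369 (1.72%) were higher at 30 min than at 0 min in edgeR's quasi-likelihood test with Benjamini-Hochberg adjustment, 2.95% in either direction. Scaled to 100 abundant nuclear transcripts with the highest 120 to 0 min ratio in Col-0, the split was 306 lower and 293 higher. A fit of the rh6812 libraries at 0, 15 and 30 min alone gave 232 rises. The lost transcripts were of ordinary abundance, with a median of 3.47 CPM at 30 min and 6.37 CPM at 0 min, and kept a median of 53.2% of their 0 min level. The risen ones were rare, with medians of 0.976 CPM at 30 min and 0.219 CPM at 0 min. Risen genes under the count minimum at 0 min passed the filter only through groups where they were higher, so the sizes of the rises are not set against those of the falls. With the replicate number as a block, the falls numbered 422 and the rises 432. With a block within each line, chosen after seeing the data, they numbered 587 and 528. Leaving out single libraries reduced the falls to 149 and 155 without replicates 1 and 2 at 0 min, and to 136, 172 and 145 without replicates 1, 2 and 3 at 30 min.

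**Figure D1:**
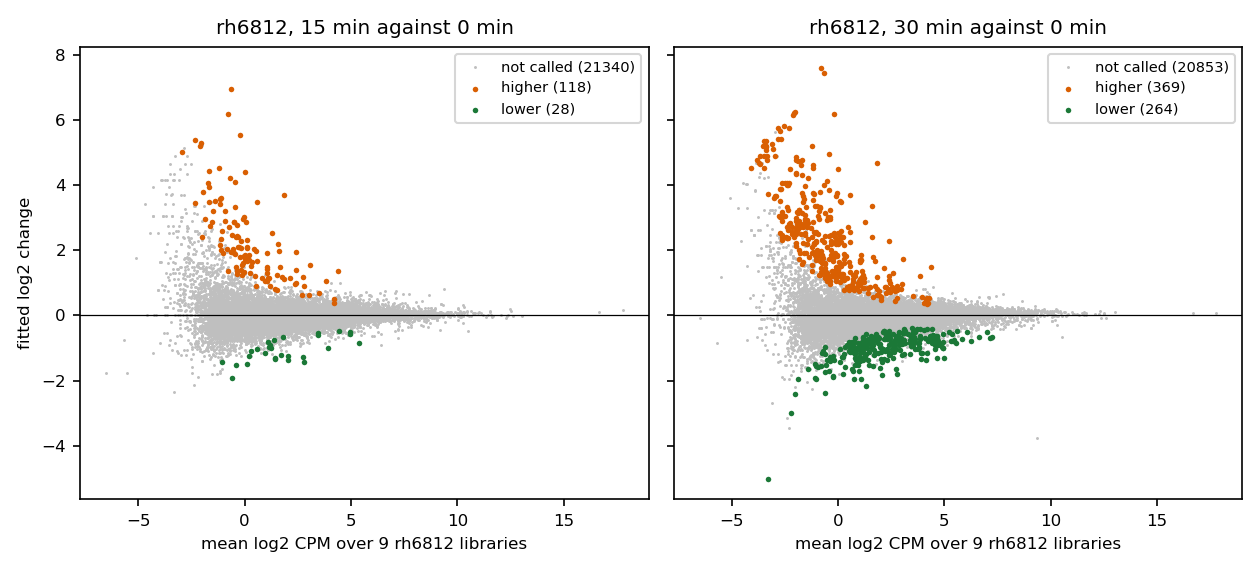
Fitted log2 change of every tested gene in rh6812 (vertical axis) against its mean log2 CPM over the 9 rh6812 libraries (horizontal axis), at 15 min (left) and 30 min (right) relative to 0 min, with genes past the adjusted threshold coloured. The calls grow to 369 higher and 264 lower at 30 min, and the higher ones sit at low abundance while the lower ones spread into the middle of the range.

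At 15 min fewer transcripts had moved past the threshold. Against 0 min, 28 genes (0.13%) were lower and 118 (0.549%) higher by edgeR, or 55 and 137 with the replicate block. As a description of genes chosen by their 30 min change, in a comparison that shares the 0 min libraries, the lost genes had covered a median of 63.1% of their 30 min change in CPM by 15 min (quartiles 49.7% and 79.6%), and the 280 risen genes with more than 3 counts at 0 min had covered 57.8% (quartiles 42.0% and 76.5%). The median log2 change of the 264 lost genes was -0.50 at 15 min and -0.90 at 30 min, and that of the 369 risen genes 1.5 and 2.2. Without replicate 1 or 2 at 0 min the falls at 15 min numbered 7 and 14, and without replicate 1 or 2 at 15 min 11 and 8, while the rises numbered 58 without replicate 1 at 0 min. Scaled to the 100 transcripts chosen in Col-0, the split at 15 min was 38 lower and 83 higher.

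The step after 15 min taken alone gave few calls. At 30 min against 15 min, 3 genes (0.014%) were lower and 3 (0.014%) higher by edgeR, 5 and 5 with the replicate block, and 805 genes had an unadjusted p under 0.05. AT1G22190, which encodes an integrase-type (AP2/ERF family) DNA-binding protein, and EXPA15, an expansin that loosens cell walls, were 2 of the 3 lower genes, with AT2G01008, annotated as a maternal effect embryo arrest protein. AT2G01008 had 171, 145 and 152 CPM at 0 min, 154, 150 and 205 at 15 min and 98.6, 94.1 and 95.5 at 30 min. EXPA15 had 1.65, 2.35 and 2.33 CPM at 0 min, 2.21, 1.71 and 1.97 at 15 min and 0.582, 0.858 and 0.572 at 30 min. For both, the 15 min libraries overlapped the 0 min ones and lay above all 3 at 30 min. Without single libraries this comparison gave 0 to 2 falls (0 without replicate 2 or 3 at 15 min or any replicate at 30 min) and 0 to 1 rises (1 without replicate 1 at 15 min, otherwise 0).

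SAUR transcripts, short auxin-induced messages of growth, had the lowest median of all the gene lists. Of 33 tested SAUR genes, 10 fell and none rose in rh6812 at 30 min by edgeR, where 1.23% of all genes fell, and the median log2 change was -1.13 (0.00 over all genes tested). Under the scalings tried the median stayed between -1.23 and -1.11. AT2G21210 had 11.6, 14.5 and 11.5 CPM at 0 min, 3.20, 5.6 and 5.17 at 15 min and 2.91, 4.41 and 3.39 at 30 min. Most of its 30 min change was in place at 15 min, and both later times lay clear of 0 min. It fell by 1.80 on the log2 scale at 30 min (SE 0.22, edgeR adjusted p = 7.09e-06), leaving 28.5% of the 0 min level. AT4G38840 likewise had 12.7, 10.1 and 11.8 CPM at 0 min, 3.20, 4.27 and 6.92 at 15 min and 2.52, 3.8 and 4.70 at 30 min, with log2 changes of -1.26 at 15 min and -1.64 at 30 min. AT4G34760 was slower, with a log2 change of -0.37 at 15 min (edgeR adjusted p = 0.715) and -1.13 at 30 min (adjusted p = 0.000462). SAUR29 fell by 2.39 at 30 min, at a level of only 1.29 to 1.51 CPM at 0 min. SAUR genes lie in families of similar sequence and how shared reads were counted is not given in the sources used here, which leaves single members uncertain. Without replicate 1 at 0 min or replicate 1 at 30 min, 5 and 6 SAUR genes were called.

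Among auxin-linked transcripts outside the SAUR family, the Aux/IAA repressors were tested as a list. Of 25 tested, 3 fell and none rose, where 1.23% of all genes fell and 1.72% rose, and the group median was -0.01, a value whose sign changed with the scaling (-0.11 to 0.01). ATAUX2-11 had 19.4, 17.3 and 14.5 CPM at 0 min, 14.5, 13.5 and 15.1 at 15 min and 9.95, 9.27 and 8.95 at 30 min. The 30 min libraries lay below all others, and the log2 change was -0.86 (SE 0.16, edgeR adjusted p = 0.00143). SHY2 (IAA3) fell by 0.67 (adjusted p = 0.0223 by edgeR) and IAA16 by 0.49 (adjusted p = 0.0498 by edgeR). The SHY2 call was lost without replicate 1 at 0 min or replicate 1 or 3 at 30 min (adjusted p 0.068 to 0.14), and the IAA16 call without any 1 of the 6 libraries (adjusted p 0.0851 to 0.195). YUC8, an auxin-synthesis monooxygenase chosen after its values were seen, had 0.971, 1.18 and 1.02 CPM at 30 min, against 3.03, 3.88 and 2.37 CPM at 0 min.

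Messages of transcription factors were among the largest falls of abundant transcripts. AT1G22190 had 41.7, 41.2 and 52.1 CPM at 0 min, 29.2, 27.6 and 34.9 at 15 min and 19.2, 19.1 and 16.5 at 30 min. The 3 times did not overlap. Its log2 change was -0.56 (SE 0.13, edgeR adjusted p = 0.0357) at 15 min and -1.30 (SE 0.13, adjusted p = 3.63e-07) at 30 min. BBX15, a B-box protein with a CCT domain, had 22.4, 32.0 and 17.3 CPM at 0 min, 10.8, 13.7 and 11.5 at 15 min and 7.77, 12 and 8.66 at 30 min. Here most of the fall came before 15 min, when the log2 change was -0.99 (SE 0.18, adjusted p = 0.00262 by edgeR), and it reached -1.32 at 30 min. The AT1G22190 call at 15 min was lost without replicate 1 or 3 at 0 min or replicate 1 or 2 at 15 min (adjusted p 0.066 to 0.23), and that of BBX15 held without each single library but not in a fit of the rh6812 libraries at 0, 15 and 30 min alone (adjusted p = 0.109).

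MYB34, a regulator of indolic glucosinolate genes, and CBF2, a factor of cold acclimation, were among the 10 largest falls at an average log2 CPM of 3 or more. MYB34 had 23.3, 23.5 and 26.1 CPM at 0 min, 18.9, 22.3 and 14.8 at 15 min and 10.7, 12.4 and 9.73 at 30 min. CBF2 had 12.8, 11.2 and 13.2 CPM at 0 min, 7.79, 7.15 and 8.80 at 15 min and 4.66, 5.27 and 6.29 at 30 min. For both, the 30 min libraries lay below the 15 min ones and these below the 0 min ones. By edgeR MYB34 fell by 1.15 (SE 0.19, adjusted p = 0.000312) and CBF2 by 1.19 (SE 0.26, adjusted p = 0.0064) at 30 min. AT4G27652, an uncharacterised protein with 9.03, 11.8 and 6.95 CPM at 30 min against 28.8, 22 and 21.5 CPM at 0 min, had the deepest fall of this set, at -1.38. Among 14 ERF and DREB factors tested, CBF2 and ERF5 fell and none rose, where 1.23% of all genes fell, with a median of -0.42. With the replicate block 4 fell. The ERF5 call was lost without replicate 1 at 0 min or any 1 replicate at 30 min (edgeR adjusted p 0.0633 to 0.184).

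LBD37, a repressor of anthocyanin genes that responds to nitrate, was lost by 15 min. It had 56.5, 61.7 and 57.7 CPM at 0 min, 27.8, 34.6 and 35.4 at 15 min and 32.5, 36.5 and 32.8 at 30 min. The 15 and 30 min libraries overlapped and both lay well below 0 min. Its log2 change was -0.85 at 15 min (SE 0.18, edgeR adjusted p = 0.0168) and -0.79 at 30 min. SR45a, an RNA-binding splicing regulator, and AT5G09460, the bHLH143 factor, were among the 5 largest falls at 15 min at an average log2 CPM of 3 or more, at -0.59 (adjusted p = 0.036) and -0.53 (adjusted p = 0.021) by edgeR. None of these 3 calls at 15 min held without each single library: LBD37 lost its call without any library but replicate 3 at 15 min (adjusted p 0.052 to 0.13), SR45a without any (0.057 to 0.24) and AT5G09460 without any but replicate 3 at 0 min (0.056 to 0.17).

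**Figure D2:**
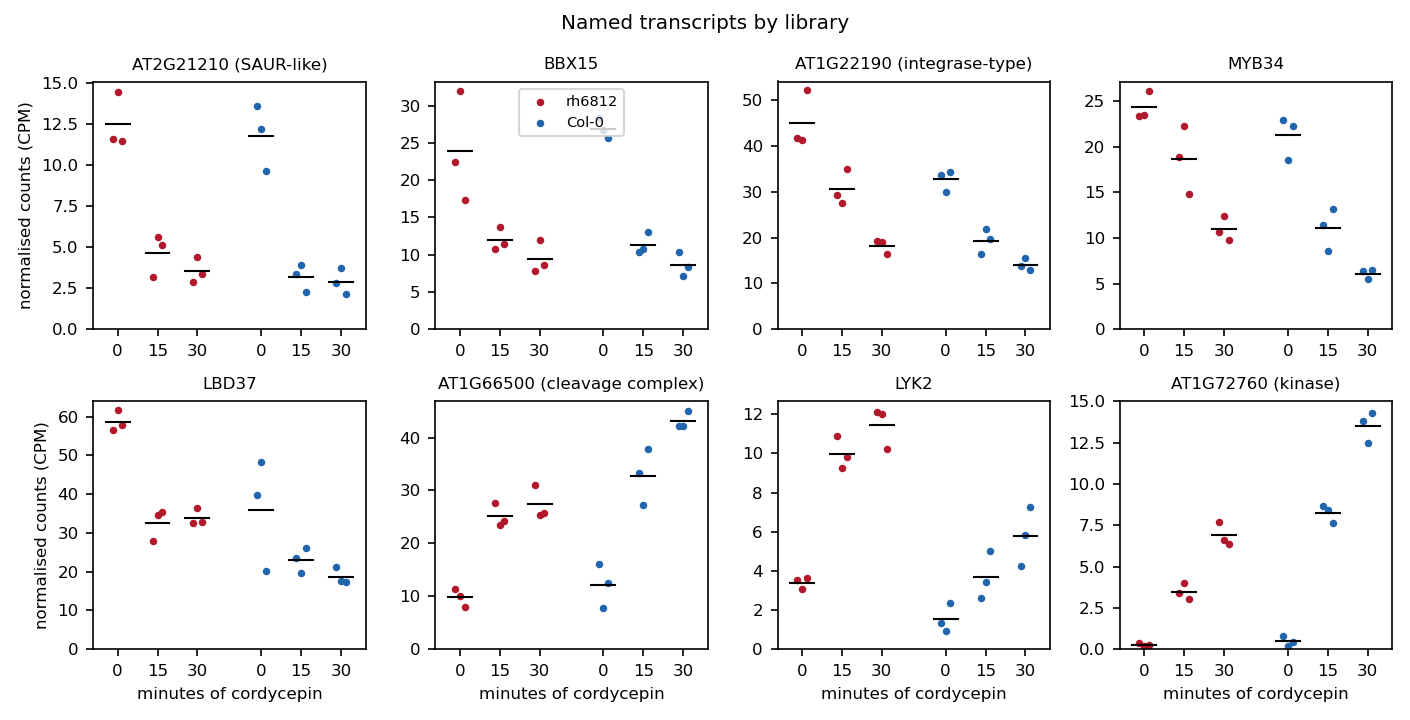
Normalised counts (CPM, linear axes from 0) of 8 transcripts in each library at 0, 15 and 30 min of cordycepin, rh6812 on the left of each panel and Col-0 on the right, with a black bar at the mean of 3 libraries. AT2G21210 and LBD37 are near their 30 min level by 15 min in rh6812, MYB34 and AT1G22190 step down at both times, and AT1G66500, LYK2 and AT1G72760 climb.

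Genes with a regulatory upstream reading frame, whose start codons lie ahead of the main coding sequence, gave 3 falls among 10 tested and no rise, where 1.23% of all genes fell. AT5G15950, an S-adenosylmethionine decarboxylase of polyamine synthesis, had 18.3, 12.3 and 18.3 CPM at 30 min, against 33.9, 23.2 and 33.9 CPM at 0 min. The group ranges did not overlap, and it fell by 0.90 (SE 0.16, edgeR adjusted p = 0.000733). AT5G09460 fell by 0.86 at 30 min, with 7.67, 8.33 and 8.42 CPM against 14.6, 16.3 and 13.5 CPM at 0 min. SAC51, a relative of AT5G09460 in thermospermine response, fell by 0.45 (SE 0.10, adjusted p = 0.00579 by edgeR), a call lost without replicate 1 at 30 min (adjusted p = 0.062). The group median was -0.21.

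Genes of other hormones also gave falls. EBF1 and EBF2, F-box proteins that target the ethylene factor EIN3 for degradation, were the only 2 falls among 17 ethylene genes, where 1.23% of all genes fell. EBF1 had 23.4, 25.9 and 22.5 CPM at 30 min, against 31.5, 39.6 and 35.5 CPM at 0 min, and EBF2 16.7, 17.8 and 17.4 against 21.5, 29.6 and 32.0. By edgeR they fell by 0.57 (SE 0.11, adjusted p = 0.00164) and 0.68 (SE 0.15, adjusted p = 0.00798), the second call lost without replicate 3 at 0 min (adjusted p = 0.08). Of 23 abscisic acid and dehydration genes 3 fell, against the same 1.23% of all genes. They were NCED3, which makes the hormone's precursor, and the phosphatases PP2CA and ABI1, which restrain its signalling. PP2CA had 18.7, 19.2 and 16.5 CPM at 30 min, against 33.1, 31.7 and 36.3 CPM at 0 min. The NCED3 values spread widely, with 13.9, 7.97 and 7.52 CPM at 30 min and 30.2, 20.2 and 14.5 CPM at 0 min, replicate 1 being highest at both times. The PP2CA call was lost without replicate 3 at 0 min or replicate 1 or 3 at 30 min (adjusted p 0.052 to 0.09), that of NCED3 without replicate 1 or 2 at 0 min or replicate 2 or 3 at 30 min (0.071 to 0.26), and that of ABI1 without any 1 of the 6 (0.058 to 0.18).

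Of 13 root markers, 3 fell in rh6812 at 30 min, where 1.23% of all genes fell, all cell wall genes of root hairs: PRP3, EXPA18 and EXPA7. PRP3 had 4.01, 2.65 and 3.46 CPM at 0 min, 1.4, 1.49 and 1.66 at 15 min and 0.922, 0.981 and 1.19 at 30 min, a log2 change of -1.71 (SE 0.29, edgeR adjusted p = 0.000458). EXPA18 fell by 1.39 (SE 0.25, adjusted p = 0.000964 by edgeR) and EXPA7 by 1.29 (SE 0.26, adjusted p = 0.00245 by edgeR). The summed level of the 13 root markers was 60.5 to 71.1 CPM at 30 min and 70.9 to 91.3 CPM at 0 min, and what its shift adds to these falls was not tested.

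A wider group was chosen after the values were seen, from product names that contain root hair specific or extensin. Of its 58 tested members 12 fell and 3 rose at 30 min in rh6812, against 1.23% and 1.72% of all genes. In Col-0 12 fell and 8 rose, against 5.24% and 5.9% of all genes. The 3 risen in rh6812 were RHS17, with a log2 change of 1.47, and AT2G41400 and AT5G05020. The last 2 are annotated as pollen allergen and extensin family proteins and had 0.337 and 0.366 CPM at 30 min. RHS19 had 7.39, 6.88 and 6.55 CPM at 0 min, 2.70, 2.40 and 3.68 at 15 min and 3.06, 2.41 and 2.21 at 30 min, so that the 15 and 30 min libraries overlapped far below 0 min. AT3G54580, an extensin-like protein, had 8.29, 7.58 and 6.71 CPM at 0 min, 3.02, 1.87 and 3.68 at 15 min and 1.60, 2.29 and 2.45 at 30 min. LRX1, a leucine-rich repeat extensin of root hairs, had 2.18, 1.53 and 2.45 CPM at 0 min and 0.485, 0.449 and 0.817 CPM at 30 min, a log2 change of -1.81.

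The remaining large falls at an average log2 CPM of 3 or more included calls that were lost when single libraries were left out. EXPA10 had 14.5, 20 and 10.7 CPM at 30 min, against 38.7, 44.6 and 27.8 CPM at 0 min, a log2 change of -1.30 (SE 0.34, edgeR adjusted p = 0.0335). UMAMIT11, of an amino acid transporter family, fell by 1.2 (adjusted p = 0.0403 by edgeR) and PUB19, a U-box protein, by 1.14 (adjusted p = 0.043 by edgeR). The EXPA10 call was lost without replicate 1 or 2 at 0 min or replicate 1 or 3 at 30 min (adjusted p 0.1 to 0.19), that of UMAMIT11 without any 1 of the 6 libraries (0.068 to 0.19), and that of PUB19 without any but replicate 3 at 0 min (0.059 to 0.21). AT1G47400, a small uncharacterised protein, held without each library, with 6.65, 6.37 and 6.09 CPM at 30 min against 12, 13 and 18.1 CPM at 0 min.

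Many groups showed no call in either direction at 30 min. They were 21 of the 32 gene lists, among them 48 nuclear photosystem and rubisco genes (median 0.06), 28 cytosolic ribosomal proteins (0.07), 22 histones (-0.02), 26 circadian clock genes (-0.11), 24 salicylic acid immunity genes (-0.01), 26 pattern-triggered defence genes (0.10) and 21 mRNA decay factors (-0.02). Of all genes 2.95% were called in either direction, and at that share lists of these sizes may hold no call. The absence of calls is therefore not read as a trait of these groups. Other lists with no call had low medians, namely 5 BT scaffold genes (-0.57), 9 type-A response regulators (-0.55), 14 shade and PIF genes (-0.50) and 9 seed maturation markers (-0.45). With the replicate block the BT, type-A and shade lists gave 1 fall each, as did the SR splicing factors, and the hypoxia list gave 1 rise. Over all tested genes 2498 had an unadjusted p under 0.05. Of 88 chloroplast loci ATCG00440 and ATCG00050 fell, and of 113 mitochondrial loci ATMG00370 did, counts near the 1.23% of all genes that fell. With the replicate block 6 chloroplast loci fell. ATCG00440 had 122, 114 and 122 CPM at 30 min, against 215, 179 and 168 CPM at 0 min, and ATCG00050 had 19.4, 24.3 and 18.8 against 39.6, 48.5 and 37.8. The ATCG00050 call was lost without replicate 1 or 2 at 0 min or replicate 1 or 3 at 30 min (edgeR adjusted p 0.056 to 0.12).

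Most of the risen transcripts were rare, 300 of the 369 having a mean under 2 CPM. In the 3 rh6812 libraries at 0 min, 30 of the 369 had no count and 59 had 1 to 3 counts over the group. Those 30 entered the test only through libraries in which they were higher, so their being called is no separate finding. Against a floor of 3 counts over the 0 min group they were at least 3.09-fold to at least 26.9-fold higher at 30 min. With these genes at their bound, the median log2 change of the 369 was 2.03 in place of 2.2. At 30 min the risen genes held 0.144 to 27.4 CPM, and together they took 0.0388% to 0.0428% of all counts at 0 min, 0.0676% to 0.0741% at 15 min and 0.0871% to 0.0917% at 30 min. The lost genes together took 0.394% to 0.441% at 0 min, 0.300% to 0.329% at 15 min and 0.234% to 0.248% at 30 min.

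The next 4 rare genes were chosen after their values were seen. AT1G72760 is a protein kinase. It had 0.356, 0.176 and 0.241 CPM at 0 min, 3.42, 4 and 3.02 at 15 min and 7.72, 6.58 and 6.38 at 30 min. Every library of a later time lay above every library of the earlier ones, and the level at 30 min was 26.7-fold that at 0 min (log2 4.67, SE 0.25, edgeR adjusted p = 8.79e-13). AT4G14368, an RCC1 family protein, had 0.535, 0.529 and 0.603 CPM at 0 min, 3.47, 2.62 and 1.58 at 15 min and 7.28, 4.94 and 5.27 at 30 min. AT2G19890, uncharacterised, had no count at 0 min, then 0.811, 0.854 and 0.745 CPM at 15 min and 1.5, 0.858 and 1.02 at 30 min, at least 24.2-fold higher. AT5G61180, a putative endonuclease or glycosyl hydrolase, also had none at 0 min and reached 1.02, 1.59 and 1.14 CPM at 30 min, at least 26.9-fold higher.

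Only 12 of the 369 risen genes had an average log2 CPM of 3 or more over the 9 libraries. LYK2, a LysM-type receptor kinase, had 3.52, 3.06 and 3.62 CPM at 0 min, 10.9, 9.23 and 9.81 at 15 min and 12.1, 12 and 10.2 at 30 min, a 3.37-fold gain (log2 1.74, SE 0.29, edgeR adjusted p = 0.000507). AT1G66500 had 11.4, 10.1 and 7.88 CPM at 0 min, 27.7, 23.5 and 24.3 at 15 min and 31.0, 25.3 and 25.8 at 30 min. AT5G43620 had 9.84, 7.35 and 6.39 CPM at 0 min, 17.4, 15.7 and 16.4 at 15 min and 18.5, 18.0 and 18.0 at 30 min. For all 3 the 0 min libraries lay far below the rest and most of the gain was in place at 15 min.

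Both AT1G66500 and AT5G43620 are annotated as pre-mRNA cleavage complex II proteins, the machinery that cuts and polyadenylates new transcripts. They rose by 1.48 (SE 0.18) and 1.21 (SE 0.15) on the log2 scale at 30 min, each with an edgeR adjusted p of 5.79e-06. The 6 genes with such a product name were taken as a group after the values were seen. Of these, 5 were tested and these 2 were the ones called, where 1.72% of all genes rose. The other tested members had log2 changes of 0.20 (AT2G36480), -0.14 (AT5G11010) and -0.02 (PCFS4). In Col-0 2 of the 5 rose as well, where 5.9% of all genes rose. AT5G60280, a lectin receptor kinase, had 10.3, 10.7 and 10.5 CPM at 30 min against 3.92, 5.64 and 6.55 CPM at 0 min. AT2G23100, a C1 domain protein, had 13.4, 13 and 11.5 CPM at 30 min against 7.53, 7.70 and 9.49 CPM at 0 min. Their log2 changes at 15 min were 0.63 (adjusted p = 0.016) and 0.69 (adjusted p = 0.00457) by edgeR, both lost without replicate 1 at 0 min and the AT5G60280 call also without replicate 3 at 15 min (adjusted p 0.063 for AT2G23100 and 0.0971 to 0.192 for AT5G60280).

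F-box proteins, the substrate receptors of SCF ubiquitin ligases, recurred among the rises. In a count made after the values were seen, 25 of the 369 risen genes (6.78%) had an F-box product name, against 236 of all 21486 tested (1.1%). Among tested genes under 2 CPM the shares were 24 of 300 risen genes (8%) and 112 of 5256 in all (2.13%). Of 653 genes with an F-box product name only these 236 passed the filter, rare ones perhaps only through groups where they were higher. In Col-0 48 of the 236 rose at 30 min, 3.79% of the Col-0 rises, where 5.9% of all genes rose. In rh6812 the 236 had a median log2 change of -0.07 at 30 min, and 3 of them fell. AT5G22670 had 0.0445, 0.118 and 0 CPM at 0 min, 0.496, 0.374 and 0.701 at 15 min and 1.84, 1.39 and 1.72 at 30 min, with all later libraries above the first ones. Of 25 heat shock genes, with a median of -0.01, 1 was called, where 2.95% of all genes were called in either direction. It was HSP18.2, a small heat shock protein, with 2.33, 2.86 and 2.13 CPM at 30 min against 1.07, 1.23 and 0.804 CPM at 0 min (log2 1.25, SE 0.19, edgeR adjusted p = 0.000101).

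Gene structure was read for both directions, with no test. In the TAIR10.1 annotation 40.2% of lost genes (105 of 261) had a single exon, against 21.4% of risen genes (79 of 369) and 16.4% of all tested genes with an annotation (3492 of 21284). Median exon numbers were 2 for lost, 3 for risen and 4 for all genes, and median coding lengths were 978, 1239 and 1146 nucleotides. The genes called in Col-0 were similar, with a single exon in 33.6% of the lower and 23.1% of the higher ones. Their median exon numbers were 2 and 3. At an average log2 CPM of 3 or more, 36.4% of lost genes and 11.1% of all genes had a single exon. Under 2 CPM, 21.0% of risen genes and 25.9% of all genes did. In the untreated poly(A)+ libraries 257 of the 264 lost genes were abundant enough to test, and 99 were lower and 91 higher in rh6812 than in Col-0 by edgeR, 38.5% and 35.4% against 32.7% and 32.2% of all genes tested in both sets. In the poly(A)+ libraries as a whole, 64.6% of genes differed between the lines. Of the risen genes 159 of 369 (43.1%) were abundant enough there, against 94.6% of all genes.

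Later libraries were read for what followed. They did not enter the contrast of 30 against 0 min itself, but shared its count filter, scaling and estimate of spread. From 60 to 120 min in rh6812, the median log2 change was -0.14 for the lost genes, -0.38 for the risen genes and 0.00 for all genes tested. By edgeR 6 genes (0.0279%) were lower at 120 min than at 60 min and 0 were higher, while 1824 had an unadjusted p under 0.05 and DESeq2 called 18 lower and 8 higher. With the replicate block 33 were lower and 10 higher. Among the 6 were 5 genes that had risen at 30 min: AT1G75960, AT3G29010, MYB110, REN1 and AT5G63390, named after their values were seen. AT3G29010 and MYB110 overlap each other on the genome, so their reads may not be separable. Without replicate 1 at 60 min 1 of the 6 calls was left, and without any other single library none.

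The same 30 min of cordycepin moved more genes past the threshold in Col-0. By edgeR 1125 genes (5.24%) were lower and 1267 (5.90%) higher in Col-0. With a block within each line, chosen after seeing the data, they numbered 1780 and 1803. Of the 264 genes lost in rh6812, 157 (59.5%) were also lower in Col-0, where they made up 14% of the Col-0 list. Of the 369 risen genes, 357 (96.7%) were also higher in Col-0, making up 28.2% of that list. The count filter took in both lines, so rare genes could enter through Col-0 libraries in which they were high. No gene called in both lines had opposite directions. Median log2 changes were -0.90 in rh6812 and -0.75 in Col-0 for the lost genes, and 2.2 and 2.70 for the risen genes. The Col-0 counts depended on the scaling, with 1678 lower and 916 higher by library size alone. Scaled to the 100 transcripts chosen in Col-0, they were 4422 lower and 810 higher. This scaling moved the median of all genes by -0.32 in Col-0 and -0.11 in rh6812. The 100 were chosen for a high 120 to 0 min ratio in Col-0, so a larger shift there is in part built in.

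**Figure D3:**
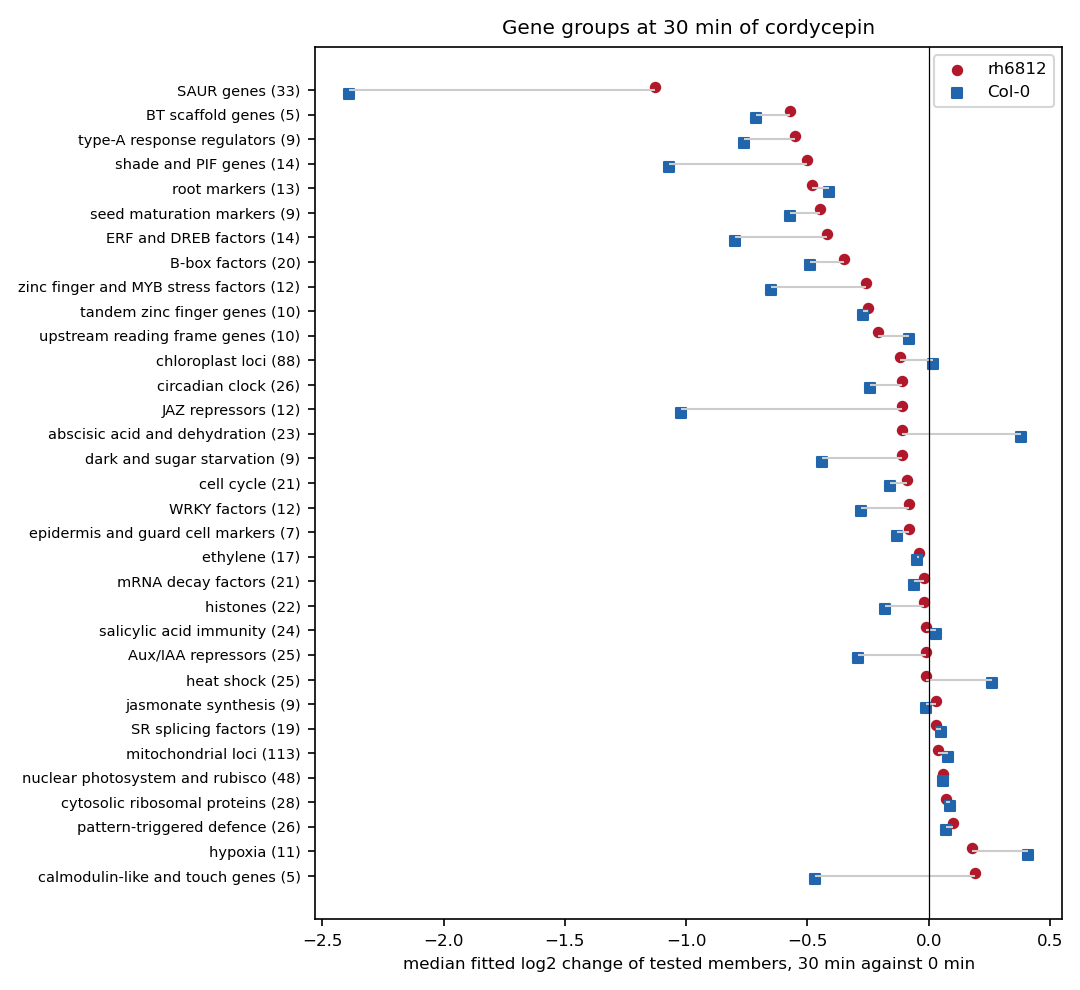
Median fitted log2 change at 30 min against 0 min (horizontal axis) of each gene group, circles for rh6812 and squares for Col-0, with the number of tested members in brackets. SAUR genes lie lowest in both lines, at -1.13 and -2.39, and JAZ repressors lie at -0.11 in rh6812 and -1.02 in Col-0.

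The gene groups are given side by side for both lines. Over all genes tested, 1.23% fell in rh6812 and 5.24% in Col-0, so more members of any group may pass in Col-0. SAUR genes gave 10 falls of 33 in rh6812 and 23 in Col-0, with medians of -1.13 and -2.39. JAZ repressors, which block jasmonate responses, gave 0 falls of 12 in rh6812 and 7 in Col-0 (medians -0.11 and -1.02), shade and PIF genes 0 of 14 and 8 (medians -0.50 and -1.07), B-box factors 2 of 20 and 9, and ERF and DREB factors 2 of 14 and 6. These are counts past a threshold in each line, and of those 5 groups only the ERF and DREB factors held a gene, ERF2, whose difference between the lines itself passed. Abscisic acid genes had medians of -0.11 in rh6812 and 0.38 in Col-0, and root markers gave 3 falls of 13 in each line.

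The difference between the lines was tested gene by gene as the rh6812 change minus the Col-0 change. By edgeR 24 genes (0.112%) had a positive difference and 35 (0.163%) a negative one, 0.275% in either direction. All 24 had fallen in Col-0, 4 of them also in rh6812, and all 35 had risen in Col-0, 8 of them also in rh6812. In each of the 59 the fitted change was smaller in size in rh6812. The 24 had median log2 changes of -0.21 in rh6812 and -1.28 in Col-0 and were of middling abundance, with a median of 21.9 CPM in rh6812 and 27.1 CPM in Col-0 at 0 min. The 35 had medians of 0.37 and 2.55 and were rarer. Their median level at 0 min was 1.32 CPM in rh6812 and 0.38 CPM in Col-0. The same 0 min libraries enter the difference by which they were chosen, so this gap is in part built in. Of the 35, 7 had 3 or fewer counts over the Col-0 libraries at 0 min. Scaled to the 100 transcripts chosen in Col-0, the counts were 37 positive and 8 negative, and by library size alone 27 and 19. The first of these scalings moved the median difference of all genes by 0.21, a shift in part built in by that choice. With the replicate number as a block shared by both lines they were 42 positive and 49 negative, and with a block within each line, chosen after seeing the data, 111 and 93.

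**Figure D4:**
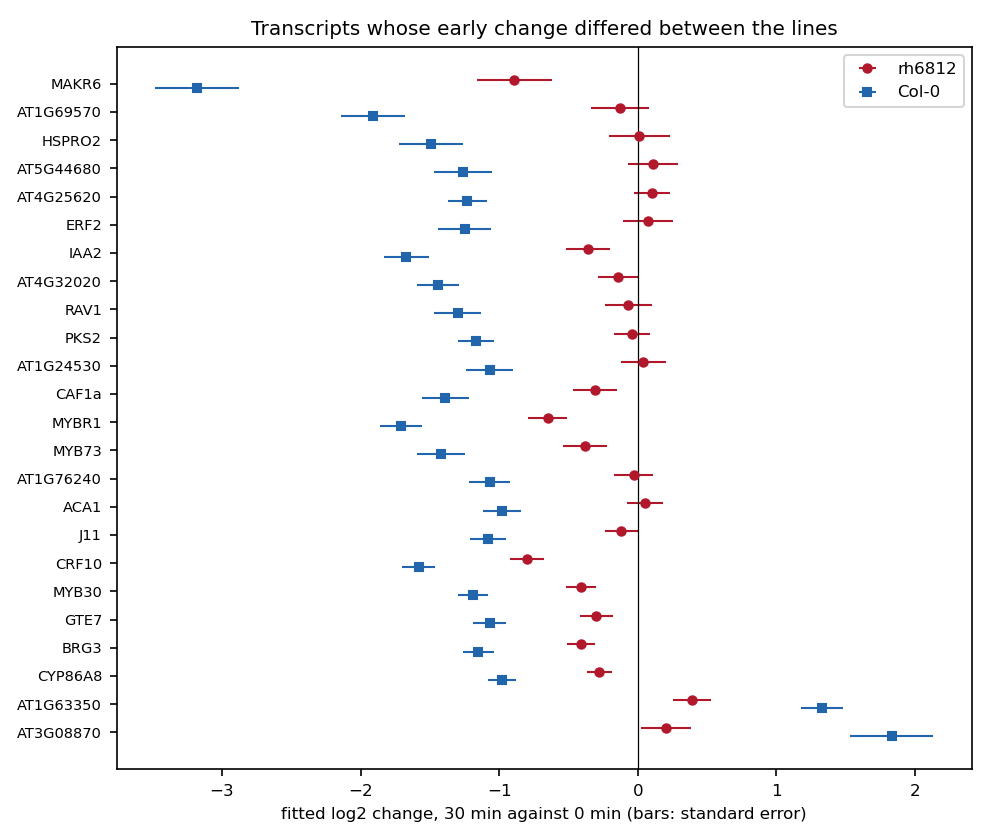
Fitted log2 change at 30 min against 0 min (horizontal axis) with its standard error for the 24 genes averaging at least 3 on the log2 CPM scale whose change differed between the lines, circles for rh6812 and squares for Col-0. The rh6812 values lie nearer to 0 than the Col-0 values in every row, from MAKR6 at -0.89 and -3.18 to AT3G08870 at 0.20 and 1.83.

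The 6 largest positive differences at an average log2 CPM of 3 or more were those of MAKR6, AT1G69570, HSPRO2, AT5G44680, AT4G25620 and ERF2. AT4G25620, a hydroxyproline-rich glycoprotein, had 45.9, 42.0 and 52.3 CPM at 30 min and 41.2, 39.0 and 50.9 CPM at 0 min in rh6812, against 23.0, 20.9 and 19.7 CPM at 30 min and 50.1, 48.0 and 50.7 CPM at 0 min in Col-0. The lines began at like levels, and the times overlapped in rh6812 and lay apart in Col-0. The difference was 1.32 (SE 0.19, edgeR adjusted p = 0.0046). MAKR6, a membrane-associated kinase regulator, had 11.8, 12.1 and 10.8 CPM at 30 min and 21.3, 22.3 and 20.9 CPM at 0 min in rh6812, against 3.59, 5.30 and 5.04 and 32.8, 40.8 and 52.2 CPM in Col-0, a difference of 2.28 (SE 0.40, adjusted p = 0.012 by edgeR). AT1G69570, a Dof-type zinc finger factor, differed by 1.78 (SE 0.31, adjusted p = 0.0096 by edgeR). The differences of HSPRO2, a resistance-related protein, AT5G44680, a DNA glycosylase family protein, and ERF2, an ethylene response factor, were 1.5, 1.37 and 1.32.

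The next 6 genes were chosen after their values were seen. RAV1, an AP2/B3 transcription factor, had 76.4, 70.7 and 65.8 CPM at 30 min and 74.0, 65.2 and 84.8 CPM at 0 min in rh6812, against 33.5, 25.1 and 35.3 and 74.0, 71.5 and 85.6 CPM in Col-0. IAA2, an auxin repressor, had log2 changes of -0.36 in rh6812 and -1.67 in Col-0, PKS2, a phytochrome kinase substrate, -0.04 and -1.17, and AT4G32020 -0.14 and -1.44. CAF1a, a deadenylase that shortens poly(A) tails, was the decay factor that differed, with 40.5, 35.7 and 37.3 CPM at 30 min and 45.2, 43.8 and 51.4 CPM at 0 min in rh6812, against 13.5, 12 and 15.5 and 29.3, 34.6 and 43.5 CPM in Col-0. MYBR1, also known as MYB44, fell in both lines, by 0.65 in rh6812 and by 1.71 in Col-0, with a difference of 1.06 (SE 0.21, edgeR adjusted p = 0.0185).

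On the negative side 2 genes reached a mean log2 CPM of 3. AT3G08870, a lectin receptor kinase, had 10.2, 10.2 and 8.34 CPM at 30 min and 6.86, 8.99 and 9.17 CPM at 0 min in rh6812, against 1.91, 1.78 and 2.33 and 0.671, 0.419 and 0.581 CPM in Col-0. It stood high in rh6812 from the start, and the difference was -1.63 (SE 0.35, edgeR adjusted p = 0.043). AT1G63350, a CC-NBS-LRR disease resistance protein, had a difference of -0.94 (SE 0.21, adjusted p = 0.048 by edgeR). HSP18.2 had log2 changes of 1.25 in rh6812 and 2.62 in Col-0.

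The number of these differences changed when single libraries were left out. Positive differences numbered 7 without replicate 2 of rh6812 at 0 min, 11, 15 and 14 without replicates 1, 2 and 3 of rh6812 at 30 min, 67 without replicate 2 of Col-0 at 0 min, and 11 and 14 without replicates 2 and 3 of Col-0 at 30 min. Negative ones numbered 11 and 20 without replicates 2 and 3 of rh6812 at 0 min, 18, 20 and 18 without replicates 1, 2 and 3 of rh6812 at 30 min, 23 without replicate 3 of Col-0 at 0 min, and 21, 18 and 14 without replicates 1, 2 and 3 of Col-0 at 30 min. Of the genes described here, AT4G25620, MAKR6, AT1G69570, IAA2, PKS2 and AT4G32020 kept their call without each of the 12 libraries in turn.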

How the data were processed

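The authors deposited a table of raw counts of reads per gene for 42 libraries, with no normalisation apparent in the values. Per the submitters' processing notes, Bowtie2 2.2.5, TopHat2 2.0.14 and the TAIR10 genome were used. Counting program and strand setting: not given in the sources used here. Overlapping genes, antisense pairs and near-identical copies are therefore uncertain. Gene names and exon structure came from RefSeq's TAIR10.1 annotation, and no coordinates are given because the builds differ.

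The tests used edgeR 4.0.16 under R 4.3.3 (robust quasi-likelihood, TMM scaling, filterByExpr with a minimum count of 10 and minimum total of 15, Benjamini-Hochberg threshold 0.05), fitting 10 group means over the 30 rRNA-depleted libraries. The 12 poly(A)+ libraries were fitted apart. Standard errors were taken as the log2 change over the root of the F statistic. Totals were 11463206 to 22251739 counts over the 30 libraries. Replicate pairs had a chi-square per degree of freedom of 6.17 to 30.2, so no pair was a duplicate. Floors and intervals cover counting error only.

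Same-numbered rh6812 libraries at 0, 15 and 30 min deviated together (r 0.176 to 0.688 in 9 pairs over 9273 genes), so the numbers were taken to pair libraries within rh6812. Same-numbered Col-0 libraries at 0 and 30 min also deviated together, with r of 0.467, 0.539 and 0.593. Between the lines the lowest r of a same-numbered pair was -0.363. The main tests left this pairing out, and the p-values and lost calls of single genes above come from such unpaired fits. Counts with the replicate number as a block stand beside results they move by over 1.5 times.

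The members and gene lists were chosen with earlier results of these data known. Genes named were the helicases, the 10 largest changes in each direction at 30 min and the 5 largest at 15 min that averaged 3 or more in log2 CPM and did not overlap, the 6 largest differences between lines at that level, and up to 4 members of each list. Alternatives were other scalings, DESeq2 1.42.0, no count filter, nuclear genes only, fewer libraries in the fit, single libraries left out and the block. The code was tested on simulated data.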

Additional observations from a re-analysis of the deposited data

Results flagged for a closer look

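The early change differed between rh6812 and Col-0, by edgeR's interaction test, for 24 genes with a positive and 35 with a negative difference (rh6812 minus Col-0). At a mean log2 CPM of at least 3 the largest positive differences were those of MAKR6 (2.28), AT1G69570 (1.78), HSPRO2 (1.5), AT5G44680 (1.37), AT4G25620 (1.32) and ERF2 (1.32). The negative ones were those of AT3G08870 (-1.63) and AT1G63350 (-0.94). MAKR6, AT1G69570 and AT4G25620 kept their call without each single library. The calls of HSPRO2, AT5G44680 and ERF2 were lost without 10, 9 and 7 of the 12 libraries taken in turn, and those of AT3G08870 and AT1G63350 without 11 and 10.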

How the results depend on the processing

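Counts are given as lower, then higher. With the replicate block they were 422 and 432 at 30 min against 0 min, 55 and 137 at 15 min, 5 and 5 at 30 against 15 min, 49 and 42 for rh6812 minus Col-0, and 33 and 10 at 120 against 60 min. A block specific to each line, chosen after seeing the data, gave 587 and 528, 93 and 166, 13 and 8, 93 and 111, and 102 and 51, with 1780 and 1803 in Col-0. Fitting only the rh6812 libraries at 0, 15 and 30 min gave 232 higher at 30 min, 61 higher at 15 min, and 0 and 0 between them. Fitting only the 0, 15 and 30 min libraries gave 12 and 12 for the line difference, and only rh6812 libraries gave 1 lower at 120 min. DESeq2 gave 5 lower at 30 against 15 min, 34 and 41 for the line difference, and 18 and 8 at 120 min. Library size alone gave 19 and 27 for the line difference and 30 lower at 120 min. Scaling to the 100 transcripts chosen in Col-0 gave 306 and 293 at 30 min, 0 and 0 at 30 against 15 min, and 8 and 37 for the line difference. It gave 4422 and 810 in Col-0 and 47 lower at 120 min. The cause was not tested.

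Leaving out single libraries gave 136 to 198 lower and 246 to 303 higher at 30 min, 7 to 22 and 58 to 98 at 15 min, 0 to 2 and 0 to 1 at 30 against 15 min, 11 to 36 and 7 to 67 for the line difference, 817 to 1092 and 1033 to 1173 in Col-0, 0 to 1 and 0 to 0 at 120 min, and 6057 to 6933 and 6192 to 6589 for the poly(A)+ levels. Fewer samples in a fit lower its power by construction. Of the single-gene values, 3005 kept their status, called or not called, 381 lost and 44 gained a call, and none reversed. The 3005 include values of genes that were never called, such as RH12. Rises of genes with few counts at 0 min are limited by depth.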
